A study of Mus musculus with 16 samples.

Results

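Mitochondrial ribosomal proteins are the nuclear-encoded proteins of the mitoribosome, the ribosome inside mitochondria. They were taken here as all protein-coding genes whose symbol begins with Mrpl or Mrps followed by a digit, and pseudogenes were left out. The rule found 77 genes among the 37620 gene IDs in the files, all 77 passed the filter on low counts, and they lie on 17 chromosomes. By symbol, 50 were counted to the large subunit and 27 to the small subunit. Mrps18a and Mrps30 were counted to the large subunit, where their proteins sit in spite of their names. The rule took in Mrps36, although its product is now known as a subunit of a citric acid cycle enzyme complex. Its values are part of the small-subunit counts and medians below.

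RNA was sequenced from the proximal jejunum, the stretch of small intestine that follows the duodenum, in 4 groups of 4 libraries. All mice were male, of the inbred strain CBA/J and 8 weeks old. The groups were 8.5 Gy of gamma radiation on the methionine-supplemented diet, 8.5 Gy on the methionine-adequate diet, 0 Gy on the supplemented diet and 0 Gy on the adequate diet. The supplement was given as 300%, and a period of 6 days was stated without saying whether it counts days on the diet or days after irradiation. Nothing in the labels ties a library to an animal, so p-values measure the spread between libraries.

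The mitoribosome makes only the proteins encoded by the mitochondrial genome itself, all of them core subunits of the respiratory chain and the ATP synthase. Its ribosomal RNAs come from that genome, whereas every protein of the particle is made on cytosolic ribosomes and imported. Some of these proteins descend from bacterial ribosomal proteins and others were added later in evolution. The jejunal epithelium is renewed continuously from dividing crypt cells, and its absorptive cells rely on mitochondria to drive nutrient uptake.

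Promoters are shown for 4 members that carry the results. Mrpl34, Mrpl51 and Mrpl35 were called lower after irradiation on both diets. Mrps18c was the sole member called higher after irradiation, on the adequate diet. Each window runs 5′ to 3′ on the gene's own strand from 250 bases before to 50 bases after the RefSeq start, on GRCm38.p6. Capitals mark matches, on either strand, to CCGGAAG (the ETS family, which includes GABPA), AAGATGGC (YY1) or CACGTG (the E box). The core GCATGCGC of the NRF1 motif and the full motif of 10 bases were searched too. The windows are chr8:71464676-71464975 on the plus strand for Mrpl34, chr6:125191950-125192249 on the plus strand for Mrpl51, chr6:71823735-71824034 on the minus strand for Mrpl35 and chr5:100798509-100798808 on the plus strand for Mrps18c.
Mrpl34: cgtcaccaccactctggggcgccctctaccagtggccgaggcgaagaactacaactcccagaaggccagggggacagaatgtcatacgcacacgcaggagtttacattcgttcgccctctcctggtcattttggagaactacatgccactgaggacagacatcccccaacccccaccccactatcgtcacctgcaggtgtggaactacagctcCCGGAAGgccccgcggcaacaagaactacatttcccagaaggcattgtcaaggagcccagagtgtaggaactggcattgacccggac
Mrpl51: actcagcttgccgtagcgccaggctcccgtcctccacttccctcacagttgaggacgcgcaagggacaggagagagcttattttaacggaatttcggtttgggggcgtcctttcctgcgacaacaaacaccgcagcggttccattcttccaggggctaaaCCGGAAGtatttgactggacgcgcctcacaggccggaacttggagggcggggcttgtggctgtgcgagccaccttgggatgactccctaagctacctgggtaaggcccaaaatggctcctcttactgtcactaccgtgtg
Mrpl35: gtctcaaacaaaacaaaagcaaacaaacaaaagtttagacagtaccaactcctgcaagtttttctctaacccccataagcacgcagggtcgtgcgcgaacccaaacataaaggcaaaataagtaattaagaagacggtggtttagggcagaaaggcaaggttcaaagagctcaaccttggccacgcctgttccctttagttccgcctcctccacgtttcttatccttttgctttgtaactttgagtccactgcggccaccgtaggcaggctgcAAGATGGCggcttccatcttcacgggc
Mrps18c: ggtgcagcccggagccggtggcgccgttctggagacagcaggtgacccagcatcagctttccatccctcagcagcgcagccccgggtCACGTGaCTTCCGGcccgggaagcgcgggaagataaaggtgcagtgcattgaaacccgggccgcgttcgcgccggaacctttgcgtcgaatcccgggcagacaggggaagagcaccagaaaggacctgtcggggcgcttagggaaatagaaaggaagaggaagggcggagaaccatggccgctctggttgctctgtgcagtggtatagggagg

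The windows of Mrpl34 and Mrpl51 each hold an ETS match upstream of the start, and that of Mrpl35 holds a YY1 match within its last bases. The window of Mrps18c holds an E box beside an ETS match on the opposite strand. Of the 77 members, 68 had a window in the RefSeq table. The ETS letters were in 25 of these 68 (36.8%), against 13.9% of the 15572 protein-coding genes and 9.93% of all 27025 genes with a window. The YY1 letters were in 12 of 68 (17.6%), against 3.82% of protein-coding and 3.19% of all genes. The NRF1 core was in 7 of 68 (10.3%), against 4.29% of protein-coding and 3.05% of all genes, and the full NRF1 motif, which contains that core, in 3 (4.41%), against 1.6% and 1.07%. The E box was in 5 of 68 (7.35%), against 9.53% of protein-coding and 8.09% of all genes. A match describes the letters in the window and shows no binding.

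Depth lay between 2566539 and 15510121 counts per library. The libraries with under 4 M (mega) counts were replicate 2 of the irradiated adequate group, replicate 1 of the irradiated supplemented group and replicate 1 of the unirradiated adequate group. The members took 0.102 to 0.179% of a library's counts. Principal component 1 (35.6% of variance) separated the doses, as irradiated libraries scored 11.8 to 52.5 on it and unirradiated ones -41.6 to -14.9. All 13 absorptive enterocyte markers were detected in every library. Markers of the ileum, such as Fabp6, summed to at most 1.53 CPM (read counts scaled by library total) and those of the stomach to at most 1.68 CPM in any library.

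Transcript levels differed widely between the members. On the TPM scale, which divides by transcript length, Mrpl54 had the highest mean over the 16 libraries at 19.8 TPM. Mrps21, the counterpart of bacterial protein S21, followed at 16.5 TPM, and Mrpl12, the stalk protein that recruits translation factors, at 14.6 TPM. At the low end stood Mrpl23 with 0.86 TPM, Mrpl35 with 1.27 TPM and Mrpl1, of the mobile L1 stalk, with 1.72 TPM. These means are a description and neighbours in this order were not tested against each other.

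On the adequate diet, a set of mitoribosomal genes was lower after irradiation, each by less than 2-fold. Of the 77 members, 13 were lower at 8.5 Gy than at 0 Gy (16.9%) and 1 was higher, by edgeR's quasi-likelihood test at a Benjamini-Hochberg adjusted p under 0.05 over all 16558 genes tested. Over all tested genes, 6.58% were lower and 7.13% higher. The median log2 fold change of the 77 was -0.20, against 0.01 over all tested genes, and 59 of the 77 values lay below 0, against 49.5% of all genes. In 16 members every irradiated library lay under every unirradiated one, a share of 20.8%, against 10.1% of all genes. In 1 member every irradiated library lay above, against 9.34% of all genes. In bulk tissue, fewer cells of a type and less RNA per cell cannot be told apart.

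On the supplemented diet, where the comparison uses 8 other libraries, 17 members were lower after irradiation (22.1%) and none was higher; by edgeR, 1 of the 77 had a positive value with an unadjusted p under 0.05, and DESeq2 also called none higher. The count of 17 was 9 without irradiated supplemented replicate 2, 10 without irradiated replicate 3 or unirradiated replicate 1 and 11 without unirradiated replicate 2 of that diet, with 3.72 to 5.03% of all genes lower in these fits. Over all tested genes, 7.21% were lower and 8.03% higher. The median of the 77 was -0.20, against 0.01 over all genes, and 58 of the 77 values lay below 0, against 49.3% of all genes. Without overlap between the groups, 23 members were lower (29.9%, against 9.23% of all genes) and 1 was higher (against 9.43%). Without regard to multiple testing, 26 members on the adequate and 30 on the supplemented diet had a p under 0.05 (33.8% and 39.0%), against 29.4% and 29.3% of all genes.

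**Figure D1:**
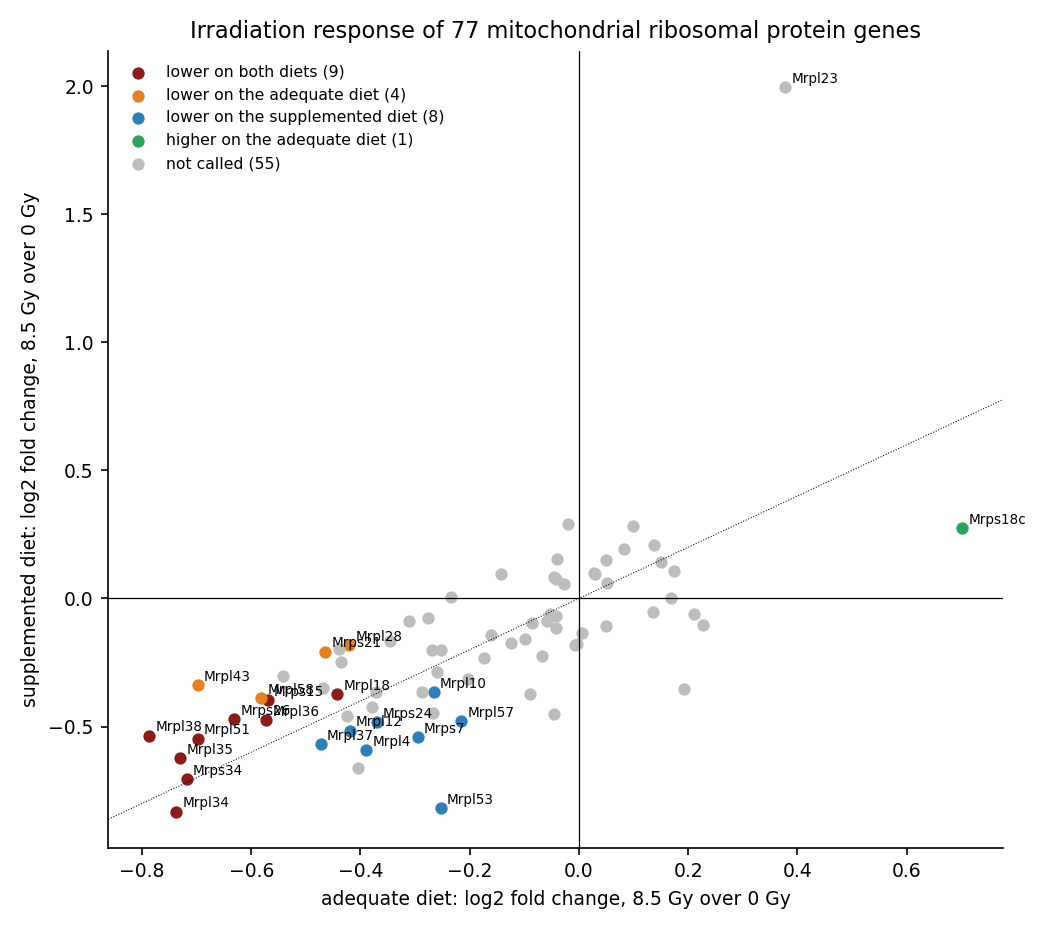
Log2 fold change of 8.5 Gy over 0 Gy for the 77 mitochondrial ribosomal protein genes, on the adequate diet (x axis) and the supplemented diet (y axis). Colours give the calls at an adjusted p under 0.05 and the dotted line marks equal values. The 9 genes lower on both diets lie at the lower left, and Mrpl23, whose value was not called, stands alone at the top.

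The genes called lower on both diets were 9: Mrpl18, Mrpl34, Mrpl35, Mrpl36, Mrpl38 and Mrpl51 of the large subunit and Mrps15, Mrps26 and Mrps34 of the small subunit. They made up 69.2% of the 13 called on the adequate diet and 52.9% of the 17 on the supplemented diet. Over all genes, 612 were lower on both diets, which is 56.1% of all genes lower on the adequate and 51.3% of those lower on the supplemented diet. Across the 77 members, the log2 fold changes on the diets had a Pearson correlation of 0.685, against 0.69 across all genes. Of the members, 52 were below 0 on both diets and 12 above 0 on both.

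Mrps34, a small-subunit protein with no bacterial counterpart that is needed for a stable small subunit in humans and mice, was among the clearest. On the adequate diet it had 15.4, 15.8, 14.5 and 20.5 CPM in irradiated libraries, against 29.9, 26.9, 26.9 and 26.5 CPM in unirradiated ones. Mice on the supplemented diet had 17.3, 13.9, 17.6 and 18.5 CPM in irradiated libraries, against 26.8, 25.7, 24.97 and 32.1 CPM in unirradiated ones. The groups did not overlap on either diet, and replicate 4 of the irradiated adequate group was the highest of the irradiated libraries. Mrps34 changed on the log2 scale by -0.72 ± 0.13 (SE, adjusted p = 0.00217) on the adequate and -0.71 ± 0.13 (adjusted p = 0.00168) on the supplemented diet. Exons of Mrps34 overlap those of Nme3 on the same strand and of Mapk8ip3 on the opposite strand. Nme3 had -0.58 and -0.57 and was not called, whereas Mapk8ip3 was lower on both diets, at -0.50 and -0.44.

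Mrpl51, a large-subunit protein added in mitochondria, was the most abundant of the 9 in counts. On the adequate diet it had 31.6, 28.2, 40.7 and 38.8 CPM in irradiated libraries, against 58.7, 58.2, 54.2 and 57.3 CPM in unirradiated ones. With supplementation the values were 30.2, 33.2, 35.4 and 37.2 CPM in irradiated libraries, against 57.1, 48.4, 43.2 and 50.96 CPM in unirradiated ones. Neither diet showed an overlap, and the unirradiated libraries of the adequate diet lay close together. Mrpl51 changed on the log2 scale by -0.70 ± 0.12 (adjusted p = 0.00140) on the adequate and -0.55 ± 0.12 (adjusted p = 0.00592) on the supplemented diet.

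Mrpl35, the counterpart of bacterial protein L35, had 12.46, 8.71, 12.4 and 13.4 CPM in irradiated libraries of the adequate diet, against 24.9, 19.8, 17.2 and 19.4 CPM in unirradiated ones. Supplemented mice had 12.6, 13.6, 13.6 and 10.8 CPM in irradiated libraries, against 19.5, 20.98, 19.8 and 18.1 CPM in unirradiated ones. All 8 irradiated libraries lay under all 8 unirradiated ones. The log2 fold change was -0.73 ± 0.14 (adjusted p = 0.00306) on the adequate and -0.62 ± 0.14 (adjusted p = 0.00582) on the supplemented diet.

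Mrpl34, the counterpart of the small bacterial protein L34, showed more spread. It had 5.60, 4.98, 6.76 and 9.58 CPM in irradiated libraries of the adequate diet, against 13.8, 13.5, 11.1 and 8.66 CPM in unirradiated ones. With the supplement it had 6.46, 5.30, 5.51 and 6.40 CPM in irradiated libraries, against 10.7, 10.5, 8.59 and 11.9 CPM in unirradiated ones. On the adequate diet irradiated replicate 4 overlapped unirradiated replicate 4, while the supplemented groups were apart. Its log2 fold change was -0.74 ± 0.20 (adjusted p = 0.0212) on the adequate diet. That call was lost when replicate 1 or 2 of the unirradiated or replicate 1, 2 or 3 of the irradiated adequate group was left out (-0.72 to -0.64, adjusted p between 0.0503 and 0.0803). On the supplemented diet it was -0.83 ± 0.20 (adjusted p = 0.00944), the largest fall among the members there.

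Mrps26, another small-subunit protein without a bacterial counterpart, had 20.3, 24.9, 20.2 and 22.0 CPM in irradiated libraries of the adequate diet, against 34.5, 36.7, 31.3 and 31.4 CPM in unirradiated ones. With the supplement the values were 24.36, 19.3, 19.3 and 20.6 CPM in irradiated libraries, against 32.2, 29.4, 24.37 and 28.5 CPM in unirradiated ones. The supplemented groups were separated by only a narrow gap, between irradiated replicate 1 and unirradiated replicate 3. Mrps26 changed on the log2 scale by -0.63 ± 0.12 (adjusted p = 0.00208) on the adequate and -0.47 ± 0.11 (adjusted p = 0.0102) on the supplemented diet.

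Mrpl18, the counterpart of bacterial protein L18, had a small and tight fall. It averaged 22.5 ± 1.64 CPM in irradiated and 30.6 ± 1.85 CPM in unirradiated libraries of the adequate diet (SD, n = 4 each). With supplementation it averaged 22.4 ± 2.204 CPM in irradiated and 28.8 ± 1.05 CPM in unirradiated libraries (SD, n = 4 each). The groups did not overlap on either diet. The log2 fold change was -0.44 ± 0.10 (adjusted p = 0.00663) and -0.37 ± 0.09 (adjusted p = 0.0139) on the adequate and supplemented diets.

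Mrpl38, of the central protuberance of the large subunit, had the largest fall of any member on the adequate diet, with 17.6 ± 4.90 CPM in irradiated and 31.5 ± 6.57 CPM in unirradiated libraries (SD, n = 4 each). Irradiated replicate 4, at 24.5 CPM, overlapped unirradiated replicate 3, at 23.9 CPM. The log2 fold change was -0.79 ± 0.18 (adjusted p = 0.00800) on the adequate diet and -0.53 ± 0.17 (adjusted p = 0.0471) on the supplemented diet. The call on the supplemented diet was lost in 11 of the 16 fits that left out 1 library (-0.59 to -0.45, adjusted p between 0.0518 and 0.144). It was kept only without adequate-diet replicates 2 or 4 at 8.5 Gy or replicates 1, 2 or 3 at 0 Gy.

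Mrpl36 and Mrps15 completed the 9, and are the counterparts of bacterial proteins L36 and S15. Mrpl36 was at -0.57 ± 0.14 (adjusted p = 0.0108) on the adequate and -0.48 ± 0.13 (adjusted p = 0.0224) on the supplemented diet. Mrps15 was at -0.57 ± 0.13 (adjusted p = 0.0101) and -0.40 ± 0.13 (adjusted p = 0.0459). On the supplemented diet, the call of Mrpl36 was lost without replicate 2 or 3 at 8.5 Gy or replicate 1, 2 or 4 at 0 Gy (-0.48 to -0.40, adjusted p between 0.0507 and 0.0901). The call of Mrps15 there was lost in 12 of 16 fits (-0.40 to -0.34, adjusted p between 0.0501 and 0.143) and kept without replicate 4 at 8.5 Gy or replicate 2 at 0 Gy of the supplemented diet, or replicate 4 at 8.5 Gy or replicate 1 at 0 Gy of the adequate diet. Mrpl36 shares exon sequence, on opposite strands, with Ndufs6, a complex I subunit whose values were -0.30 and -0.18 and not called.

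**Figure D2:**
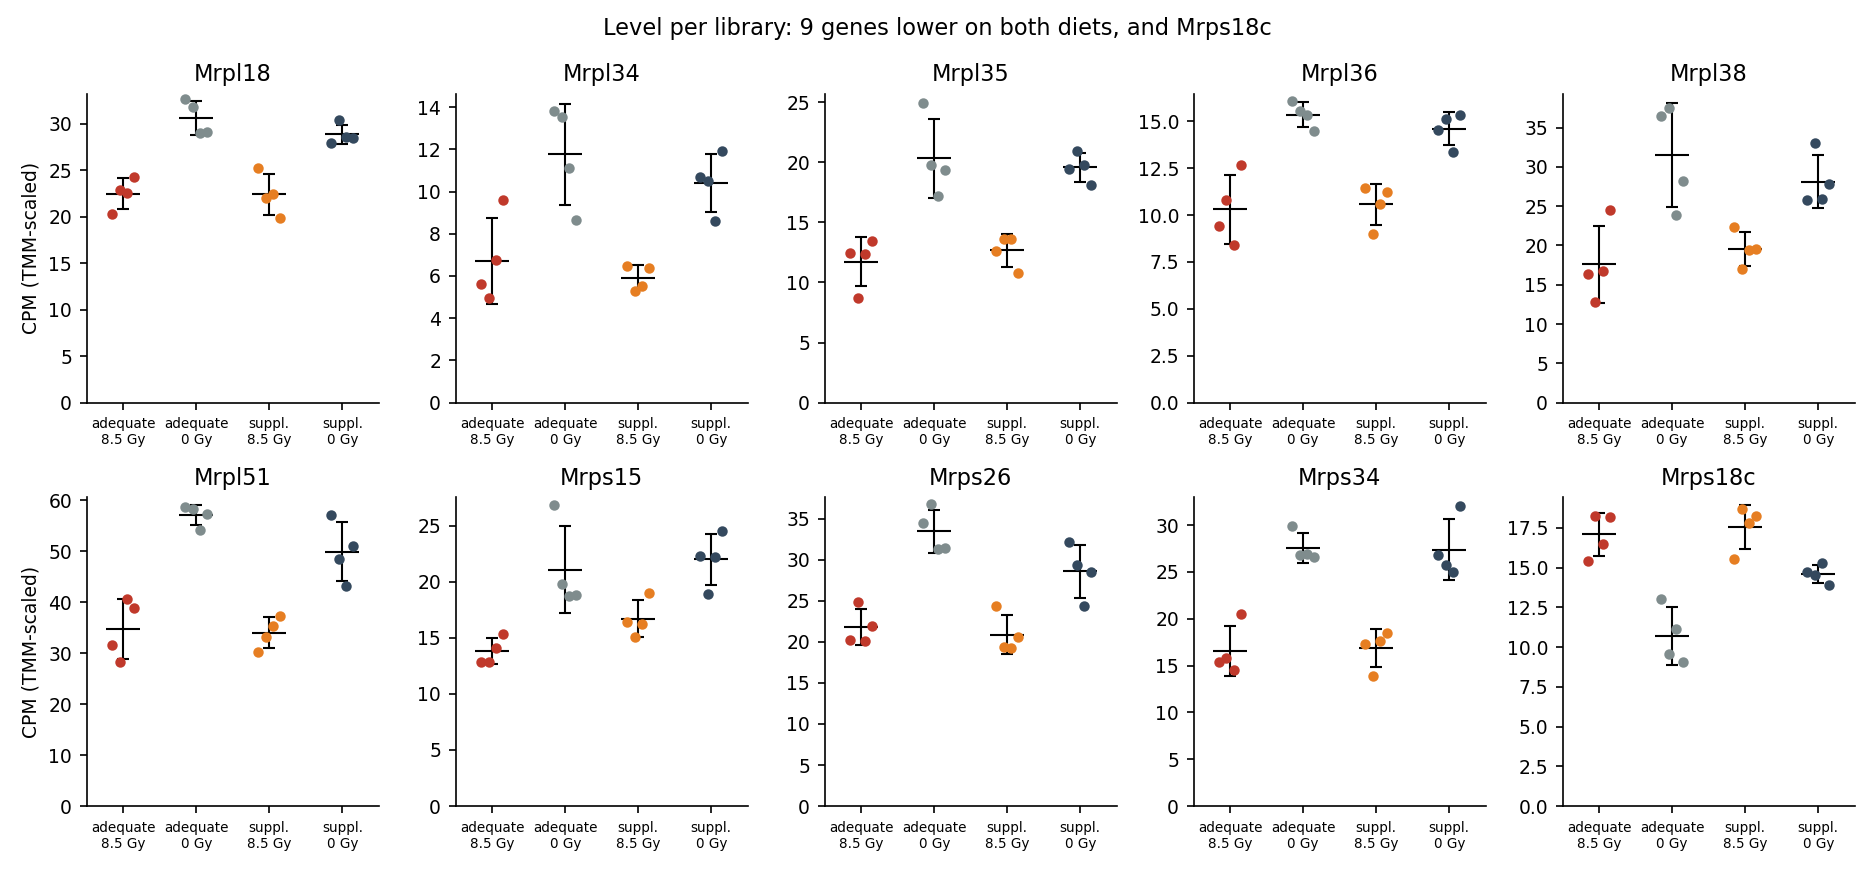
CPM per library for the 9 genes lower on both diets and for Mrps18c, with 4 libraries (points) per group and the group mean and SD (black). Irradiated libraries lie below unirradiated ones on both diets in most panels, and Mrps18c runs the other way, with 15.4 to 18.2 CPM in irradiated and 9.04 to 13.04 CPM in unirradiated libraries of the adequate diet.

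Mrps18c was the exception among the 77, as the only member called higher after irradiation. It is 1 of 3 mammalian paralogs of bacterial protein S18, and it takes the S18 position in the small subunit. It had 15.4, 18.3, 16.5 and 18.2 CPM in irradiated libraries of the adequate diet, against 13.04, 9.54, 11.1 and 9.04 CPM in unirradiated ones. In supplemented mice it had 15.6, 18.7, 17.8 and 18.2 CPM in irradiated libraries, against 14.7, 14.5, 15.3 and 13.9 CPM in unirradiated ones. The groups did not overlap on either diet. It rose by a log2 fold change of 0.70 ± 0.12 (adjusted p = 0.00164) on the adequate diet and had 0.27 ± 0.12 (adjusted p = 0.127) on the supplemented diet. The difference between these responses was -0.43 ± 0.17 on the log2 scale, with an unadjusted p of 0.0226 and an adjusted p of 0.9999, so the responses were not shown to differ.

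The paralogs of Mrps18c were not called. Mrps18a, which sits in the large subunit, averaged 10.5 ± 1.54 CPM in irradiated and 12.8 ± 2.35 CPM in unirradiated libraries of the adequate diet, and 10.8 ± 0.663 CPM and 13.9 ± 2.26 CPM on the supplemented diet (SD, n = 4 each). Mrps18b, of the small subunit, averaged 16.9 ± 2.47 CPM in irradiated and 15.3 ± 2.94 CPM in unirradiated libraries of the adequate diet, and 19.4 ± 2.28 CPM and 20.2 ± 4.38 CPM on the supplemented diet (SD, n = 4 each). Their log2 fold changes on the adequate and supplemented diets were -0.29 and -0.37 for Mrps18a and 0.14 and -0.05 for Mrps18b.

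Members called on the adequate diet alone were Mrpl43, Mrpl58, Mrps21 and Mrpl28. Mrpl43, a large-subunit protein without a bacterial counterpart, had 25.1, 25.7, 30.5 and 24.2 CPM in irradiated libraries, against 52.9, 45.6, 41.6 and 33.1 CPM in unirradiated ones, without overlap. For Mrpl43 the log2 fold change was -0.70 ± 0.14 (adjusted p = 0.00486), against -0.34 ± 0.14 (adjusted p = 0.116) on the supplemented diet. The unirradiated libraries of Mrpl43 were spread widely, whereas the irradiated ones lay close together.

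Mrpl58, a peptidyl-tRNA hydrolase that rescues stalled mitoribosomes and is also a structural subunit, had 10.03, 10.4, 11.3 and 15.99 CPM in irradiated libraries of the adequate diet, against 17.6, 17.4, 17.4 and 19.97 CPM in unirradiated ones. Its log2 fold change was -0.58 ± 0.15 (adjusted p = 0.0178) there and -0.39 ± 0.15 (adjusted p = 0.0809) on the supplemented diet. The call on the adequate diet was lost without replicate 1 or 3 at 8.5 Gy or replicate 4 at 0 Gy (-0.55 to -0.49, adjusted p between 0.05002 and 0.0726). Mrps21 was at -0.46 ± 0.11 (adjusted p = 0.00999) on the adequate and -0.21 ± 0.11 (adjusted p = 0.205) on the supplemented diet, and the call on the adequate diet was lost for Mrps21 in a fit of the 2 groups alone (-0.43, adjusted p = 0.0527). Mrpl28, the counterpart of bacterial protein L28, was at -0.42 ± 0.12 (adjusted p = 0.0336) and -0.18 ± 0.12 (adjusted p = 0.348). The call of Mrpl28 was lost without replicate 1 or 2 at 8.5 Gy or replicate 1 or 2 at 0 Gy (-0.41 to -0.35, adjusted p between 0.0830 and 0.111), and for Mrpl28 also with limma voom (adjusted p = 0.0521), without the filter on low counts (0.0704) and in a fit of the 2 groups alone (0.0885).

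Members called on the supplemented diet alone were 8, led by Mrpl53, a large-subunit protein near the stalk base. It had 3.82, 5.64, 7.23 and 7.37 CPM in irradiated libraries, against 10.6, 12.6, 8.89 and 11.8 CPM in unirradiated ones, without overlap. For Mrpl53 the log2 fold change was -0.82 ± 0.20 (adjusted p = 0.0128), against -0.25 ± 0.21 (adjusted p = 0.465) on the adequate diet. Without irradiated replicate 2 the value was -0.77 with an adjusted p of 0.0503. Exons of Mrpl53 overlap those of Gm42688 on the same strand, which was at -0.44 on the supplemented and -0.86 on the adequate diet, with a lower call on the adequate diet.

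Mrpl4, which lines the exit tunnel as its bacterial counterpart L4 does, had 25.8, 19.3, 26.5 and 27.3 CPM in irradiated libraries of the supplemented diet, against 36.0, 37.5, 35.6 and 39.6 CPM in unirradiated ones. For Mrpl4 the log2 fold change was -0.59 ± 0.13 (adjusted p = 0.00653), and -0.39 ± 0.13 (adjusted p = 0.0612) on the adequate diet. Mrps7, the counterpart of S7 in the head of the small subunit, had 15.9, 15.4, 14.8 and 11.3 CPM in irradiated libraries of the supplemented diet, against 23.0, 20.4, 19.6 and 20.1 CPM in unirradiated ones. For Mrps7 the log2 fold change was -0.54 ± 0.12 (adjusted p = 0.00645), and -0.29 ± 0.12 (adjusted p = 0.117) on the adequate diet. Both genes showed no overlap on the supplemented diet.

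Mrpl37, a large-subunit protein without a bacterial counterpart, had 24.1, 17.7, 18.1 and 17.7 CPM in irradiated libraries of the supplemented diet, against 30.6, 29.2, 24.97 and 28.5 CPM in unirradiated ones. Its log2 fold change was -0.57 ± 0.16 (adjusted p = 0.0206) there and -0.47 ± 0.16 (adjusted p = 0.0557) on the adequate diet. The stalk protein Mrpl12 was at -0.52 ± 0.14 (adjusted p = 0.0196) on the supplemented and -0.42 ± 0.14 (adjusted p = 0.0566) on the adequate diet. Mrps24, which takes the place of bacterial S3, was at -0.48 ± 0.13 (adjusted p = 0.0196) and -0.37 ± 0.13 (adjusted p = 0.0734). The calls of Mrpl37 and Mrps24 were lost without replicate 2 or 3 at 8.5 Gy or replicate 1 or 2 at 0 Gy (-0.55 to -0.53 for Mrpl37 and -0.46 to -0.44 for Mrps24, adjusted p between 0.0502 and 0.0721). The call of Mrpl12 was lost without the same libraries or without replicate 4 at 0 Gy (-0.51 to -0.48, adjusted p between 0.0524 and 0.0668).

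Mrpl57, a further large-subunit protein without a bacterial counterpart, was at -0.48 ± 0.12 (adjusted p = 0.0109) on the supplemented and -0.21 ± 0.12 (adjusted p = 0.256) on the adequate diet. Mrpl10, which anchors the stalk, was at -0.37 ± 0.12 (adjusted p = 0.0411) and -0.27 ± 0.12 (adjusted p = 0.140). Its call was lost in 9 of the 16 fits that left out 1 library (-0.38 to -0.30, adjusted p between 0.0513 and 0.140). It was kept without replicate 4 at 8.5 Gy or replicate 3 at 0 Gy of the supplemented diet, or replicates 2, 3 or 4 at 8.5 Gy or replicates 1 or 2 at 0 Gy of the adequate diet. That a gene was called on 1 diet does not show that the diets differed, and the interaction test called none of the 77.

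Lower calls were found in both subunits. Without supplementation 9 of 50 large-subunit members were lower (18.0%, median log2 fold change -0.15). Of 27 small-subunit members (median -0.26), 4 were lower (14.8%) and 1 higher (3.70%). With the supplement 12 of 50 large-subunit members (median -0.19) and 5 of 27 small-subunit members (median -0.20) were lower. Members with a bacterial counterpart had 7 of 47 lower (14.9%) and 1 higher (2.13%) on the adequate diet (median -0.17). On the supplemented diet they had 10 of 47 lower (21.3%, median -0.20). Members without such a counterpart had 6 of 30 lower (median -0.23) and 7 of 30 lower (median -0.19). The medians of all genes were 0.01 on both diets, and these groups of members were not tested against each other.

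Members named for their roles in translation were mostly not called. Mrps12, the decoding-site protein, averaged 5.84 ± 0.526 CPM in irradiated and 8.04 ± 1.62 CPM in unirradiated libraries of the adequate diet, and 5.88 ± 0.694 CPM and 7.49 ± 2.75 CPM on the supplemented diet (SD, n = 4 each). Mrps16, a small-subunit protein linked to human disease, was at -0.38 ± 0.17 and -0.42 ± 0.17 on the log2 scale, with adjusted p-values of 0.157 and 0.101. Mrpl11, at the base of the stalk, averaged 9.04 ± 2.24 CPM in irradiated and 9.77 ± 1.40 CPM in unirradiated libraries of the adequate diet (SD, n = 4 each). Mrpl3, Mrpl44, Mrpl41, Mrps22 and Mrps30 had log2 fold changes between -0.18 and 0.17 in both comparisons. Mrpl1 was at 0.15 ± 0.20 and 0.14 ± 0.20, and the most abundant member per length, Mrpl54, at -0.28 ± 0.14 and -0.07 ± 0.14, all of them not called.

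Mrpl23, the counterpart of bacterial protein L23, had the largest value of all members on the supplemented diet and was not called. It had 12.03, 1.21, 0.689 and 3.88 CPM in irradiated libraries, against 1.57, 0.514, 0.899 and 0.783 CPM in unirradiated ones, so 1 irradiated library stood far above the rest. Its log2 fold change was 1.997 ± 0.955 (adjusted p = 0.180). Its pseudogene Mrpl23-ps1 held 82.2% of the counts of the pair, which RSEM divides between near-identical copies, so the split is uncertain. With both summed, the log2 fold change was 0.04 on the supplemented and 0.13 on the adequate diet, neither called. Pseudogenes held 14.8% of the summed counts for Mrpl48 and 7.17% for Mrps36, and neither gene was called with or without them.

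Exon sequence of another gene in the files overlaps 27 of the 77 members, in 5 members on the same strand and in 24 on the opposite strand, per GENCODE M21. The sources used here do not state whether counting used strand, so the counts of these members are uncertain. Of the 21 members called lower on either diet, 11 are among them, and of the 9 called on both diets, 5. The partner Gga3, opposite Mrps7, was itself lower on both diets (-0.45 and -0.39). Mif4gd, also opposite Mrps7, was lower on the adequate diet (-0.69) and not called on the supplemented diet (-0.25). Tcp1, opposite Mrpl18, had 0.11 and 0.36 and was not called, and Twnk, opposite Mrpl43, had -0.07 and 0.07 and was not called. The 21 members called lower had a median transcript length of 977 bases, against 948 bases for the other 56, and a median level of 6.91 TPM, against 4.04 TPM.

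Among members with a promoter window, the ETS letters were in 9 of the 18 called lower on either diet, against 16 of the 50 not called lower (32.0%). The YY1 letters were in 5 of the 18 (27.8%), against 7 of the 50 (14.0%). The NRF1 core was in 1 of the 18, against 6 of the 50. These shares are descriptive and the counts are small. Of the factors themselves, the genes Gabpa, at 0.15 ± 0.10 and 0.24 ± 0.10, Yy1, at 0.11 ± 0.09 and 0.09 ± 0.09, and Nrf1, at -0.36 ± 0.14 and -0.21 ± 0.14, were not called on the adequate or the supplemented diet (log2 fold change and SE).

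Summed over the 77 members, the level was lower in irradiated jejunum. Without supplementation it was 1250, 1206, 1275 and 1472 CPM in irradiated libraries, against 1561, 1672, 1486 and 1471 CPM in unirradiated ones. With supplementation it was 1474, 1344, 1337 and 1326 CPM in irradiated libraries, against 1639, 1615, 1516 and 1602 CPM in unirradiated ones. The supplemented groups did not overlap, whereas irradiated replicate 4 of the adequate diet lay at the level of the lowest unirradiated library. The means were 1301 ± 118 CPM in irradiated and 1548 ± 91.9 CPM in unirradiated libraries of the adequate diet, and 1370 ± 69.6 CPM and 1593 ± 53.6 CPM on the supplemented diet (SD, n = 4 each). No test was run on the sum.

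The irradiated libraries with the highest sum, adequate replicate 4 and supplemented replicate 1, also had the lowest sums of the 13 enterocyte markers, at 20350 and 18980 CPM. In the other irradiated libraries those markers summed to between 34660 and 69310 CPM, and in unirradiated ones to between 33950 and 46240 CPM. The same libraries had the highest sums of the 11 markers of cycling crypt cells, at 957 and 806 CPM, against 457 to 715 CPM in the other irradiated and 493.5 to 647 CPM in the unirradiated libraries. None of the cycling markers was called in either comparison, and of the enterocyte markers 2 were higher on the adequate and 1 on the supplemented diet. Without these libraries, an alternative chosen after seeing the data, 18 members were lower on the adequate diet (8.03% of all genes) and 17 on the supplemented diet (6.25% of all genes). Of the 13 and 17 calls made with all libraries, 13 and 15 were among them.

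**Figure D3:**
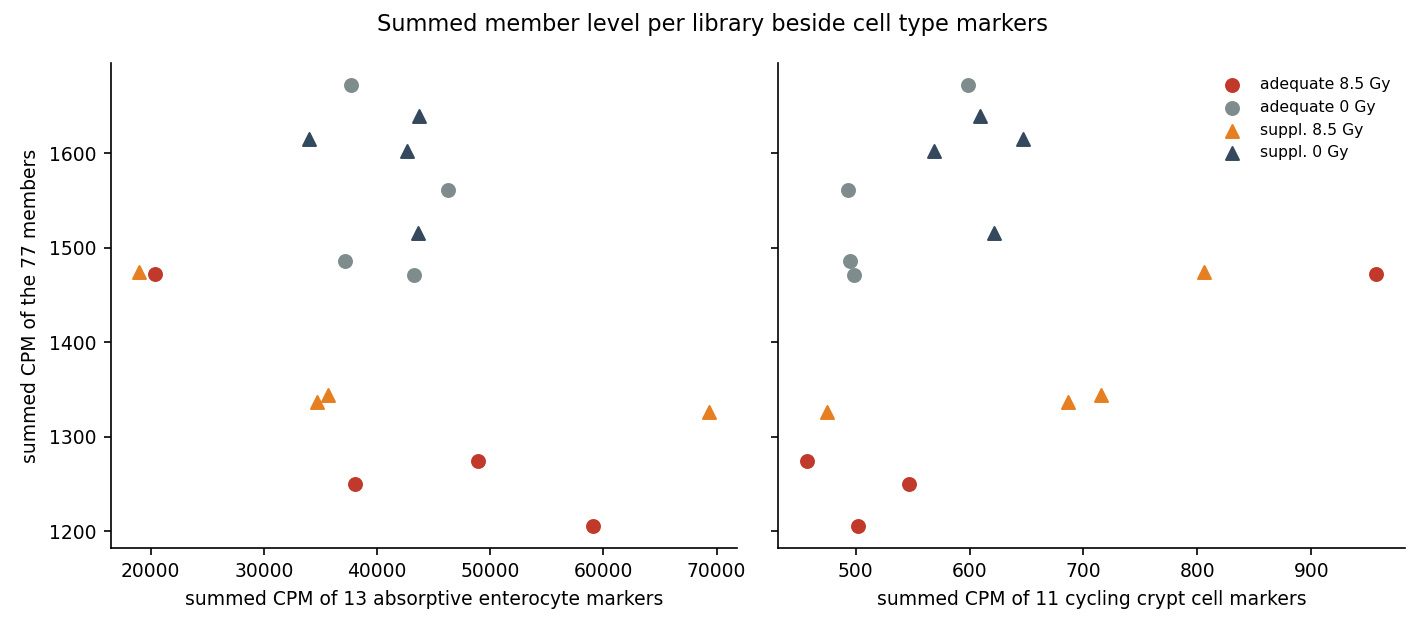
Summed CPM of the 77 members per library (y axis) against the summed CPM of 13 absorptive enterocyte markers (left) and of 11 cycling crypt cell markers (right); circles are the adequate and triangles the supplemented diet. The axes do not start at 0. The irradiated libraries with 1472 and 1474 CPM lie at the low end of the enterocyte markers and the high end of the cycling markers.

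Other cell type markers moved with irradiation too. All 5 Paneth cell markers were higher on both diets, with sums of 6891 to 10220 CPM in irradiated and 2160 to 3168 CPM in unirradiated libraries of the adequate diet, and of 8706 to 13230 CPM and 2765 to 4730 CPM on the supplemented diet. All 5 erythroid markers were lower on both diets, with sums of 3.28 to 8.66 CPM in irradiated and 365 to 591 CPM in unirradiated libraries of the adequate diet, and of 3.59 to 28.03 CPM and 120 to 393 CPM on the supplemented diet. Plasma cell markers were lower in 4 of 4 on the adequate and 3 of 4 on the supplemented diet, with sums of 68.9 to 116 CPM in irradiated and 226 to 440 CPM in unirradiated libraries of the adequate diet, and of 120 to 167 CPM and 181 to 400 CPM on the supplemented diet. On the adequate and supplemented diets, 1 and 2 of 6 goblet and 2 and 3 of 5 enteroendocrine markers were higher. T cell markers were higher in 2 and 0 of 5. Macrophage markers were higher in 1 and 1 of 4 (Lyz2) and fibroblast markers in 1 and 1 of 5 (Dcn). Exocrine pancreas markers were higher in 0 and 4 of 6, but these 4 averaged at most 1.98 CPM and Amy2a5 was not tested. No lower call was made among these types, and none of the 6 smooth muscle markers was called. Over all tested genes, 7.13% and 8.03% were higher and 6.58% and 7.21% lower. The part of these cell types in the values of the members was not tested.

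Other genes of mitochondrial translation were read against the 6.58% of all genes lower on the adequate and the 7.21% lower on the supplemented diet. Of 14 translation factors, 3 were lower on the adequate (21.4%) and 2 on the supplemented diet (14.3%), and none was higher. Tufm, the elongation factor that delivers aminoacyl-tRNA to the mitoribosome, had 63.9, 55.6, 60.6 and 96.7 CPM in irradiated libraries of the adequate diet, against 105, 114, 109.5 and 110.0 CPM in unirradiated ones. Under supplementation it had 82.2, 73.7, 74.1 and 75.2 CPM in irradiated libraries, against 109.8, 123, 107 and 119 CPM in unirradiated ones. Neither diet showed an overlap, and as for the summed level the highest irradiated value on the adequate diet was that of replicate 4. The log2 fold change of Tufm was -0.66 ± 0.14 (adjusted p = 0.00599) on the adequate and -0.59 ± 0.14 (adjusted p = 0.00940) on the supplemented diet. The other factors called were Gfm2 (-0.37), which acts in ribosome recycling, and Taco1 (-0.49), a translational activator of a mitochondrial mRNA, on the adequate diet, and Mtif3 (-0.46), an initiation factor, on the supplemented diet.

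Of 5 mitoribosomal proteins named outside the Mrpl and Mrps series, Aurkaip1, of the small subunit, was lower on both diets, at -0.67 ± 0.13 (adjusted p = 0.00424) and -0.62 ± 0.13 (adjusted p = 0.00518). Gadd45gip1, of the large subunit, was lower on the supplemented diet, at -0.58 ± 0.19 (adjusted p = 0.0492), and had -0.09 ± 0.19 on the adequate diet. Of 26 genes for mitoribosome assembly and rRNA modification, 2 were lower on each diet (7.69%), a share near that of all genes. These were Nsun4 (-0.44), an rRNA methyltransferase, and Mettl17 (-0.81), an assembly factor of the small subunit, on the adequate diet, and the GTPases Noa1 (-0.43) and Mtg2 (-0.61) on the supplemented diet. The medians of the list were -0.09 and -0.22. Of 17 mitochondrial aminoacyl-tRNA synthetases, Aars2 (-0.59) and Cars2 (-0.47) were lower on the adequate diet (11.8%, against 6.58% of all genes). On the supplemented diet Cars2 (-0.56) was lower (5.88%, against 7.21% of all genes). The median of the synthetases was -0.12 on the adequate and -0.01 on the supplemented diet, where 8 of the 17 values were positive.

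Of 11 genes for transcription and upkeep of the mitochondrial genome, Polg2, the accessory subunit of the mitochondrial DNA polymerase, was lower on the adequate diet at -0.62 ± 0.13 (adjusted p = 0.00457). It had -0.31 ± 0.12 (adjusted p = 0.103) on the supplemented diet. That is 9.09% of the list on the adequate and 0% on the supplemented diet, against 6.58% and 7.21% of all genes. Of 9 nuclear regulators of mitochondrial biogenesis, the coactivator gene Ppargc1b was lower on both diets, at -0.60 ± 0.15 (adjusted p = 0.0125) and -0.62 ± 0.15 (adjusted p = 0.00923). Its relative Ppargc1a was at -0.59 ± 0.19 (adjusted p = 0.0446) on the adequate and -0.52 ± 0.19 (adjusted p = 0.0660) on the supplemented diet. Esrra, a nuclear receptor that works with these coactivators, was at -0.38 ± 0.18 (adjusted p = 0.176) and -0.59 ± 0.18 (adjusted p = 0.0383). On each diet 2 of the 9 regulators were lower (22.2%), against the same shares of all genes. None was called higher, although 5 of the 9 values were positive on each diet, up to 0.84 and 0.52. Myc had 18.2 to 37.1 CPM in irradiated and 7.67 to 20.1 CPM in unirradiated libraries of the adequate diet. On the supplemented diet it had 15.8 to 33.7 CPM and 9.83 to 29.3 CPM. The medians over the 9 regulators were 0.10 and 0.09.

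The messenger RNAs that the mitoribosome translates were higher. Of the 13 mitochondrially encoded messenger RNAs, 12 were higher on the adequate (92.3%) and 11 on the supplemented diet (84.6%), with no lower call. Over all tested genes, 7.13% and 8.03% were higher, and 6.58% and 7.21% lower. The medians of the 13 were 1.23 and 1.08 on the log2 scale. The exception on both diets was mt-Co2 (0.34 and 0.56, not called), and mt-Co1 (0.59) was not called on the supplemented diet. The genes for the mitochondrial ribosomal RNAs, mt-Rnr1 at 0.12 and 0.07 and mt-Rnr2 at 0.51 and 0.22, were not called. The libraries were made from rRNA-depleted RNA, so these values do not show whether the ribosomal RNAs themselves changed. Across libraries mt-Rnr1 ran from 8952 to 16370 CPM on the adequate and from 3056 to 7018 CPM on the supplemented diet. Proteins of the cytosolic ribosome were taken as the 76 tested genes named Rpl or Rps plus a digit, without the Rps6k kinases. Of these, 31 were higher (40.8%) and 1 lower (1.32%) on the adequate diet. On the supplemented diet 35 were higher (46.05%) and none lower, and the medians were 0.57 and 0.60. The list goes by name and also holds genes such as Rps19bp1 (-0.33 and -0.44), named for binding a ribosomal protein. Scaled on protein-coding genes alone, 14 mitochondrial ribosomal protein genes were lower on the adequate and 17 on the supplemented diet.

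**Figure D4:**
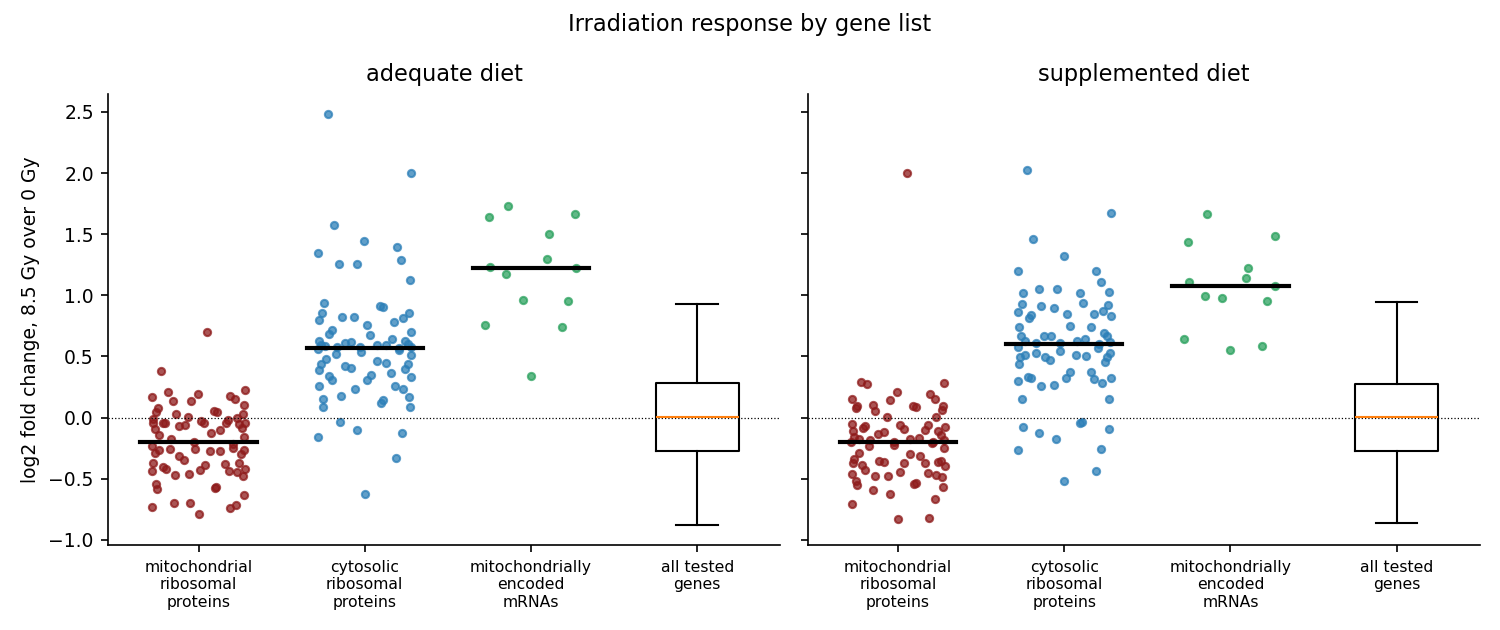
Log2 fold change of 8.5 Gy over 0 Gy on the adequate (left) and supplemented diet (right) for each gene of 3 lists (points, with the median as a black line) and for all tested genes (box, the middle 50% with the median; whiskers, the 5th to 95th percentile). The mitochondrial ribosomal proteins have medians of -0.20 on both diets, the cytosolic ones 0.57 and 0.60, and the mitochondrially encoded mRNAs 1.23 and 1.08.

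Methionine supplementation left no call among the members. At 0 Gy, edgeR's quasi-likelihood test called none of the 77 higher or lower in supplemented against adequate libraries, with 0.169% of all genes higher and 0.0302% lower. The median log2 fold change of the members was 0.07, 7 members had an unadjusted p under 0.05 (9.09%, against 11.9% of all genes), and DESeq2 called 2 members higher. At 8.5 Gy none was called either, nor was any of the 16558 genes (0% higher and 0% lower). The median of the members there was 0.06, 2 members had an unadjusted p under 0.05 (2.60%, against 5.26% of all genes), and DESeq2 called none.

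At 0 Gy the supplemented libraries lay above all adequate ones, without overlap, in 7 members (9.09%, against 4.71% of all genes) and below in none (against 4.43%). Values below 0 were found in 28 of the 77 at 0 Gy and 29 at 8.5 Gy, against 51.4% and 50.1% of all genes. The pair that DESeq2 called, Mrps18c and Mrpl30, was named after the values were seen. Mrps18c had 14.7, 14.5, 15.3 and 13.9 CPM in unirradiated supplemented libraries, against 13.04, 9.54, 11.1 and 9.04 CPM in unirradiated adequate ones, with a log2 fold change of 0.48 (adjusted p = 0.122). Mrpl30, the counterpart of bacterial protein L30, had 27.8, 33.5, 32.1 and 28.3 CPM in unirradiated supplemented libraries, against 17.6, 19.6, 21.7 and 25.9 CPM in unirradiated adequate ones, with a log2 fold change of 0.50 (adjusted p = 0.128). At 8.5 Gy, 1 member lay above without overlap (against 1.44% of all genes) and none below (against 1.7%).

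No member was shown to respond to irradiation differently on the diets. The interaction, taken as the log2 response on the supplemented minus that on the adequate diet, was called by edgeR in none of the 77 members (0% of all genes higher and 0% lower), with a median of -0.01. Mrps18c, named above, was the only member with an unadjusted p under 0.05, and DESeq2 called none. With 4 libraries per group, differences of the size seen for Mrpl53 (-0.56 ± 0.29) or Mrpl43 (0.36 ± 0.20) did not pass.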

How the data were processed

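RNA of 16 jejunum libraries was measured. Libraries were made from rRNA-depleted, fragmented RNA with a small-RNA kit, per the labels' protocols. Per the submitters' processing notes, Bowtie2 2.2.9, RSEM 1.3.0 and edgeR 3.2.4 were used with the build NCBIM37. The authors deposited expected counts, TPM and FPKM values per gene from RSEM; FPKM was not used. Expected counts were rounded to whole numbers here, and TPM served only for levels between genes. GENCODE M21 gave symbols for 32897 of 37620 IDs, gene types and exon overlaps. RefSeq gave promoter windows.

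edgeR 4.0.16 in R 4.3.3 filtered low counts (filterByExpr, 16558 genes kept), scaled by TMM and fitted 4 group means over all 16 libraries with a robust quasi-likelihood F test. Tests were two-sided with Benjamini-Hochberg adjustment over all tested genes, called under 0.05. The SE is the log2 fold change divided by the square root of F. CPM are TMM-scaled. On simulated data the fit was tested before use. Alternatives were RLE scaling, scaling on protein-coding genes, no filter, DESeq2 1.42.0, limma 3.58.1 (voom), fits of the 2 groups compared, a threshold of 0.01 and left-out libraries. Removal of the irradiated library lowest in enterocyte markers on each diet, and addition of pseudogene counts, were chosen after seeing the data. Totals of 2566539 to 15510121 counts per library limit the precision of low genes.

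The members and lists were chosen with earlier results of these data known. Members were named where called (all if 12 or fewer, otherwise the 8 largest rises and falls), for the 3 highest and 3 lowest mean TPM, and by role in the ribosome. Mrpl18, Mrpl36, Mrps15, Mrpl28, Mrps24, Mrpl57, Mrpl10 and Mrpl30 fall outside this rule and were chosen after their values were seen. No pairing or batch was given by the labels, and replicate numbers only name libraries. No RefSeq promoter window was available here for Mrpl4, Mrpl13, Mrpl15, Mrpl19, Mrpl38, Mrpl54, Mrps28, Mrps34 and Mrps35.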

Additional observations from a re-analysis of the deposited data

Results flagged for a closer look

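In 12 of 144 groups of 4 values, 1 library stood apart from the other 3 by Dixon's criterion at the 95% level, which chance passes in about 1 group in 20. Among irradiated libraries, supplemented replicate 1 had a summed member level of 1474 CPM (others 1326 to 1344), Mrpl37 at 24.1 CPM (others 17.7 to 18.1) and Mrpl57 at 15.85 CPM (others 11.83 to 12.02). Supplemented replicate 4 had Mrpl54 at 53.1 CPM (others 35.4 to 35.6), and adequate replicate 2 had Mrpl53 at 4.15 CPM (others 7.27 to 7.496). Among unirradiated libraries, adequate replicate 1 had Mrps34 at 29.9 CPM (others 26.5 to 26.9), Mrps22 at 12.65 CPM (others 10.4 to 10.6) and Mrps15 at 26.8 CPM (others 18.8 to 19.8). Adequate replicate 2 had Mrps18b at 19.7 CPM (others 13.4 to 14.4), and adequate replicate 4 had Mrpl58 at 19.97 CPM (others 17.4 to 17.6). Supplemented replicate 3 had Mrpl12 at 45.55 CPM (others 57.6 to 60.1), and supplemented replicate 1 had Mrpl41 at 8.05 CPM (others 9.78 to 9.98). Replicate 1 of the irradiated supplemented group, with 3 of these values, had 3427975 counts and the lowest sum of enterocyte markers of all libraries; the part of either in these values was not tested.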

How the results depend on the processing

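Over all settings the median log2 fold change of the members stayed below 0 in both radiation comparisons, at -0.29 to -0.14 on the adequate and -0.26 to -0.14 on the supplemented diet. The number of members lower was 9 to 18 on the adequate diet at the threshold of 0.05. On the supplemented diet it was 15 to 19 in fits that did not drop a single library. An adjusted p under 0.01 left 8 and 6 lower. Leaving out 1 library gave 10 to 18 on the adequate and 9 to 19 on the supplemented diet. The low counts on the supplemented diet came without replicate 2 (9) or 3 (10) at 8.5 Gy or replicate 1 (10) or 2 (11) at 0 Gy. Mrpl35, Mrpl51 and Mrps34 were lower under every setting on both diets, Mrpl18, Mrpl43 and Mrps26 on the adequate diet, and Mrpl4, Mrpl34 and Mrps7 on the supplemented diet. Without the libraries under 4 M counts, Mrpl28, Mrpl34, Mrpl38, Mrpl58 and Mrps15 were no longer called on the adequate and Mrpl10 and Mrps15 on the supplemented diet. In fits of the 2 groups alone the calls of Mrpl28, Mrpl34 and Mrps21 on the adequate and of Mrpl10 and Mrps15 on the supplemented diet were lost. The supplemented-diet calls of Mrpl10 and Mrps15 were also lost without the filter on low counts. They were lost again without the irradiated libraries lowest in enterocyte markers. In the diet comparisons DESeq2 called 2 members higher at 0 Gy, and the median at 8.5 Gy ranged from -0.02 to 0.13.

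Members that were not called changed sign, among them Mrpl23, at 0.378 on the adequate diet, and others nearer 0; the cause was not tested. On the adequate diet, Mrpl41 was at -0.00 with DESeq2 and -0.04 without the libraries lowest in enterocyte markers. Mrps22 was at 0.001 without a filter, 0.023 with DESeq2, 0.037 with voom, 0.024 in the fit of 2 groups and 0.117 without libraries under 4 M counts, where Mrps30 was at 0.089. On the supplemented diet, Mrpl1 was at -0.017 without libraries under 4 M counts and -0.018 without those lowest in enterocyte markers. Mrpl44 was at -0.046 and -0.048 in these fits, -0.004 with RLE, -0.005 with scaling on protein-coding genes and in the fit of 2 groups, -0.017 without a filter, -0.011 with DESeq2 and -0.018 with voom. Leaving out 1 library gave, on the adequate diet, -0.094 to 1.488 for Mrpl23, -0.32 to 0.014 for Mrpl11, -0.114 to 0.02 for Mrpl3, -0.107 to 0.106 for Mrpl41, -0.108 to 0.058 for Mrps22 and -0.184 to 0.111 for Mrps30. With supplementation it gave -0.019 to 0.311 for Mrpl1, -0.078 to 0.077 for Mrpl44, -0.264 to 0.01 for Mrpl41 and -0.147 to 0.046 for Mrps18b. No paired analysis was possible because the labels give no replicate numbers that tie libraries of different groups.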
